A study of Mus musculus with 768 samples.

Results

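The cytosolic ribosomal protein genes encode the protein subunits of the ribosome, and 84 of the 24490 endogenous genes in the deposited tables carried such a symbol. They were chosen by symbol alone, as Rpl or Rps followed by a number and an optional a, x, y or l, together with *Rpsa*, *Rplp0*, *Rplp1* and *Rplp2*. Pseudogene rows and the Rps6k kinases were left out. Of the 84 genes, 51 belong to the large and 33 to the small subunit, and 7 are paralogues whose symbol ends in l or l1 (*Rpl3l*, *Rpl7l1*, *Rpl10l*, *Rpl22l1*, *Rpl39l*, *Rps4l* and *Rps27l*). They were measured in cells of 2 mammary tumors, 1 from each of 2 MMTV-PyMT mice aged 14 weeks, in which a viral oncogene driven by a mammary tumor virus promoter gives rise to carcinomas. The study sorted EpCAM-, CD45-, CD31- and NG2-negative cells, 1 cell per well, and made Smart-seq2 libraries with ERCC spike-in RNA, 768 wells in all with equal numbers from both tumors. No well received a treatment. Every plate held a single tumor. Replication is therefore at the level of the tumor (n = 2), and differences between tumors and between plates cannot be told apart.

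The wells were divided by 3 genes outside the family, *Rgs5*, *Dcn* and *Top2a*, which mark vascular CAFs, matrix CAFs and dividing cells. Among wells with at least 10000 non-ERCC reads, 65 had a *Top2a* RPKM of at least 10 and are called Top2a-positive (30 in tumor 1 and 35 in tumor 2). Of the others, 85 wells of tumor 1 and 83 of tumor 2 were Dcn-high and 63.3% and 56.8% of all wells of the tumors were Rgs5-high, each with an RPKM of at least 10 for that gene and a log2(RPKM + 1) at least 2 above that of the other gene. A further 33 wells fell in no class and 41 had too few reads. These classes are ranges of 3 genes and not cell types: 26 wells lay within 1 log2 unit of the margin, 14 Top2a-positive wells had a *Top2a* RPKM under 20, and 59 of the 65 Top2a-positive wells also passed the Rgs5-high rule.

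Ribosomal protein mRNAs are among the most abundant messages of most cells, since each ribosome needs a copy of nearly every subunit protein. Many of them begin with a C followed by a run of pyrimidines, the terminal oligopyrimidine (TOP) motif, through which the kinase mTOR and the protein Larp1 adjust their translation. Mammalian genomes also hold many processed copies of these genes, so that short reads can match more than 1 place.

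The start sites of the following 9 genes are printed because they show members with and without the letters of a TOP motif at the listed start. Each stretch holds 20 bases before and 10 bases from the start site listed by RefSeq for GRCm38.p6, 5′ to 3′ on the strand of the gene, and capitals mark the unbroken run of C and T that spans the start.
Rpl14: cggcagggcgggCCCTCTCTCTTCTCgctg
Rplp2: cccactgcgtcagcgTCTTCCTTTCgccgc
Rps6: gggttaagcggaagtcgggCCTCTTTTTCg
Rps15a: gcccactctctttctgccaTCTTCCCTCgc
Rps27: acaggatttccgctttcgCTCCTTTCCggc
Rps3: gaacacttgcaagggtcgccgcgctgcgcg
Rpl4: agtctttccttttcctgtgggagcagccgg
Rplp0: acgtcgtcttcgggtttcgaggaccgcctg
Rpl41: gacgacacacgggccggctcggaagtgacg

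On the plus strand, these stretches lie at chr9:120571497-120571526 (*Rpl14*), chr7:141447631-141447660 (*Rplp2*), chr9:64173367-64173396 (*Rpl4*) and chr5:115559447-115559476 (*Rplp0*). On the minus strand, they lie at chr4:86857358-86857387 (*Rps6*), chr7:118116138-118116167 (*Rps15a*), chr3:90213639-90213668 (*Rps27*), chr7:99483700-99483729 (*Rps3*) and chr10:128549159-128549188 (*Rpl41*). Of the 63 members with a listed start, 13 (20.6%) had a C at the start followed by 4 bases that were each C or T. The same held for 2.86% of 8452 other tested genes and for 813 of all 27025 genes with a listed start (3.01%), all read on the strand of the gene. The letters TTCTTT within 10 bases of the start were found in 2 of the 63 members (3.17%) against 0.866% of all genes, and the letters CTTTT in 4 (6.35%) against 2.52%. In 33 of the 63 members no C or T stood at the listed start, *Rps3*, *Rpl4*, *Rplp0* and *Rpl41* among them, and whether transcription in these cells began at the listed base was not measured.

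The classes were compared with marker lists, leaving out *Rgs5*, *Dcn* and *Top2a*, which set the classes. The summed level of 9 other *Rgs5*-type markers was 10432 and 11729 CPM (reads scaled to 1000000 non-ERCC reads) in Rgs5-high wells of tumors 1 and 2 and 423.99 and 512.8 in Dcn-high wells. That of 9 other *Dcn*-type markers was 289.3 and 393.1 against 13466 and 11750. The 9 other cell cycle markers summed to 2891 and 3300.3 CPM in Top2a-positive wells and 66.9 to 113.7 in the others. Markers of other cells were low: epithelium 2.86 to 102.6, endothelium 0.0408 to 29.001 and leukocytes 2.47 to 12.9 CPM per library, with 3 red cell genes at 0 in all 6. Markers of developmental CAFs, 8 genes, summed to 1818 and 2190 CPM in Dcn-high, 47.2 and 424.6 in Rgs5-high and 140.1 and 730.4 in Top2a-positive wells. Values without the wells rich in these markers are given beside the results. The classed wells held 10281 to 1190516 reads (median 207664), and the summed libraries of a class and tumor 7700379 to 48965491 reads.

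Ribosomal protein genes took a smaller share of the reads in Dcn-high wells than in Rgs5-high wells and in Top2a-positive wells a share close to that of Rgs5-high wells. The share was 0.704% in tumor 1 and 0.728% in tumor 2 in Rgs5-high wells, a mean of 0.716% ± 0.0174 (SD, n = 2 tumors). In Dcn-high wells it was 0.503% and 0.574% (0.538% ± 0.0505), and in Top2a-positive wells 0.736% and 0.742% (0.739% ± 0.00416). Both Dcn-high values lay below both Rgs5-high values, by more than the spread between tumors, and both Top2a-positive values lay above them. The place of the Top2a-positive wells of tumor 2 depended on the setting. It turned below the Rgs5-high wells of that tumor with Top2a-positive wells taken from an RPKM of 50 (0.689% against 0.735%) and without the wells rich in developmental markers (0.726% against 0.739%). Over the Rgs5-high wells of its own tumor, the share in Dcn-high wells was 0.714 and 0.788 times as large and in Top2a-positive wells 1.05 and 1.02 times. With 2 tumors a class, an exact permutation test cannot give a two-sided p under 0.333, so no test was made of these values. Leaving out the wells with reads of at least 4 of the 8 developmental markers, the mean log2 ratio of Dcn-high to Rgs5-high wells was -0.43 in place of -0.41.

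**Figure D1:**
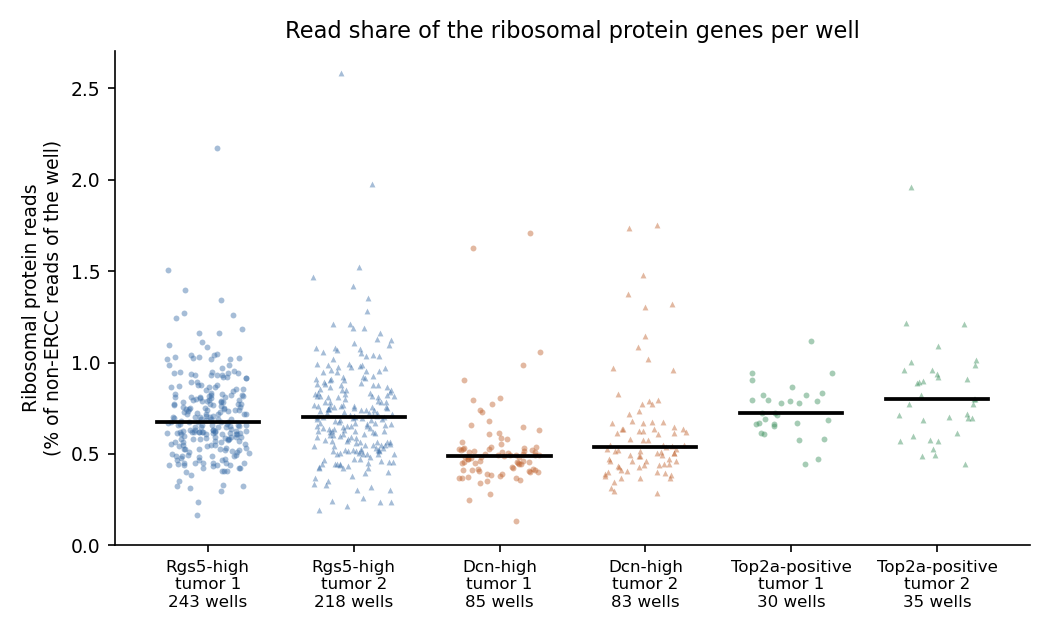
Reads on the 84 ribosomal protein genes as a percent of all non-ERCC reads (vertical axis, from 0) in each classed well (90.4% of the 768 wells), by class and tumor. Each point is a well and each bar the median, which stands at 0.486% and 0.539% in the Dcn-high wells, below the 0.675% and 0.702% of the Rgs5-high wells, while single wells of the classes overlap widely.

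Single wells varied far more than the class totals. In Rgs5-high wells the share ran from 0.165% to 2.17% (median 0.675%) in tumor 1 and from 0.195% to 2.58% (median 0.702%) in tumor 2. In Dcn-high wells it ran from 0.131% to 1.71% (median 0.486%) and from 0.289% to 1.75% (median 0.539%). In Top2a-positive wells it ran from 0.448% to 1.12% (median 0.724%) and from 0.446% to 1.96% (median 0.799%). The ranges overlapped throughout, yet 74 of 85 Dcn-high wells of tumor 1 (87.1%) and 65 of 83 of tumor 2 (78.3%) lay below the Rgs5-high median of their tumor. For Top2a-positive wells it was 11 of 30 (36.7%) and 12 of 35 (34.3%). Within a class and tumor, the large and small subunit shares of a well had a Spearman correlation of 0.544 to 0.851, a description in which both shares have the same denominator. The correlation of the share with the reads of the well was between -0.334 and 0.114.

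Both subunits had their lowest share in Dcn-high wells. The large subunit took 0.360% and 0.364% of the reads in Rgs5-high, 0.257% and 0.288% in Dcn-high and 0.364% and 0.363% in Top2a-positive wells. The small subunit took 0.344% and 0.364%, 0.246% and 0.286%, and 0.372% and 0.379%. The 7 paralogues together did not, with 0.0236% and 0.0174% in Rgs5-high, 0.0229% and 0.0187% in Dcn-high and 0.0250% and 0.0235% in Top2a-positive wells. Without the 50 most-read other genes in the denominator, the family's share was 0.863% and 0.888% in Rgs5-high, 0.647% and 0.734% in Dcn-high and 0.882% and 0.884% in Top2a-positive wells, so that in tumor 2 the Top2a-positive value again lay below the Rgs5-high one. In the deposited RPKM values, which divide by gene length, the family took 1.85% and 2.00%, 1.47% and 1.72%, and 1.99% and 2.17%.

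Relative to the spike-in RNA the order was different, and the other genes gave more reads per ERCC read as well. The family gave 0.0392 and 0.0414 reads per ERCC read in Rgs5-high wells (0.0403 ± 0.0016, SD, n = 2 tumors), 0.0583 and 0.0660 in Dcn-high wells (0.0622 ± 0.00545) and 0.0699 and 0.0740 in Top2a-positive wells (0.0720 ± 0.00289). Both Dcn-high and both Top2a-positive values lay above both Rgs5-high values. All other genes together gave 5.52 and 5.64 reads per ERCC read in Rgs5-high, 11.5 and 11.4 in Dcn-high and 9.43 and 9.90 in Top2a-positive wells. Thus the family was 1.54 ± 0.0740 times as high per ERCC read in Dcn-high as in Rgs5-high wells, where the other genes were 2.06 ± 0.0452 times as high. In Top2a-positive wells the family was 1.79 ± 0.0005 times as high and the other genes 1.73 ± 0.0331 times. The 2 tumors were not as close in other settings, with the family at 2.23 and 1.72 times as medians over wells. The median ERCC share of all reads moved with the classes, at 14.8% and 13.3% in Rgs5-high, 6.39% and 6.23% in Dcn-high and 8.44% and 8.45% in Top2a-positive wells. More RNA in a well and less spike-in added to it cannot be told apart in these values.

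**Figure D2:**
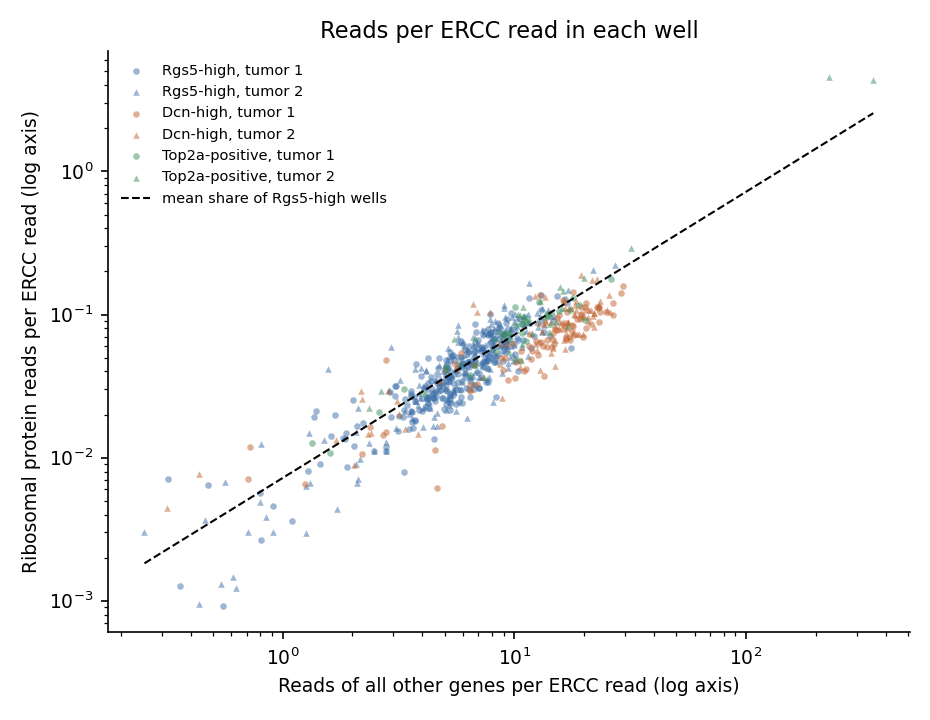
Ribosomal protein reads per ERCC read (vertical, log axis) against all other reads per ERCC read (horizontal, log axis) in each classed well, with colour for the class and point shape for the tumor. The dashed line marks the mean Rgs5-high share of 0.716%, Dcn-high wells lie mostly to the right of and below it, and 2 Top2a-positive wells of tumor 2 with under 1% of reads on ERCC stand far at the top right.

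In single wells, the median was 0.0380 and 0.0446 ribosomal protein reads per ERCC read in Rgs5-high, 0.0664 and 0.0813 in Dcn-high and 0.0850 and 0.0769 in Top2a-positive wells. Below the Rgs5-high median of their tumor lay 16 of 85 (18.8%) and 21 of 83 (25.3%) Dcn-high wells, and 5 of 30 (16.7%) and 6 of 35 (17.1%) Top2a-positive wells. The highest Top2a-positive well, in tumor 2, reached 4.56. Without the 2 wells of tumor 2 with under 1% of reads on ERCC, the mean log2 ratio of Top2a-positive to Rgs5-high wells was 0.82 in place of 0.84. Within a class and tumor, the family and all other genes per ERCC read had a Spearman correlation of 0.748 to 0.895, with the ERCC reads shared by both measures.

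The reads were spread very unevenly over the family. Of its 989784 reads in the classed wells, 50% lay on 6 genes and 65.5% on 10. In all 6 libraries, 12 genes were above 100 CPM and 27 below 5 CPM. By mean RPKM, which scales reads to gene length, the 5 highest included *Rpl8* (557.3), *Rpl4* (436.5), *Rplp1* (435.9) and *Rps3* (384.1). *Rps3* lies in the head of the small subunit near the mRNA, *Rpl4* lines the tunnel through which the new peptide leaves, *Rpl8* sits close to the catalytic centre, and *Rplp1* belongs to the stalk that receives the elongation factors. The 5 lowest detected genes by mean RPKM were *Rpl24* (0.818), *Rpl27* (0.406), *Rpl28* (0.362), *Rpl29* (0.295) and *Rpl3l* (0.0447), with 95, 54, 34, 32 and 16 reads in all. Other members had as few reads, such as *Rpl30* with 14. These ranks are uncertain, because the length behind the RPKM was far below the transcript for some members, *Rps20* at 13.8% and *Rpl34* at 35.01% among them, and because sequence is shared with other genes, in *Rplp1* over 64.8% of its stretches of read length. A cell that makes ribosomes uses all of these except *Rpl3l*, a paralogue known from striated muscle, so a low value here does not show that the gene is little expressed. *Rpl10l*, a paralogue known from the testis, had no read, and 3 reads in the classed wells would be 0.0202 CPM.

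How much of a transcript can be told apart from other genes moved with these read numbers. For 83 of the 84 members, all but *Rps4l*, each stretch of 43 bases, the read length, was looked up in the transcripts of all other genes of the GENCODE vM21 annotation of GRCm38, processed copies included. A median of 55.2% of a member's stretches also occurred in another gene, against 0.110% over 10632 other tested genes. The 14 members under 25% had a median of 14277.5 reads, the 45 members from 25% to under 75% had 4919, and the 24 members at 75% or more had 300.5. Only 1.35% of the other tested genes reached 75%. Across the 83 members the Spearman correlation of shared stretches and reads was -0.526, a description over genes that differ in length and expression. *Rps3* (chr7:99477896-99483709) shared 4.18% of its stretches, *Rpl8* (chr15:76904071-76906318) 8.65% and *Rpl4* (chr9:64173387-64178562) 20.5%. *Rpl5* shared 94.2% and had a read in 14.6% of the classed wells and *Rpl3* shared 86.2% and was read in 14.1%. There were exceptions in both directions, since *Rpl3l* shared 0% and had 16 reads, and *Rps4x* shared 75.6% and had 10951 reads. How the authors' counting treated reads with several matches is not given in the sources used here, and the part of shared sequence in the levels was not tested. Levels of members with many shared stretches are therefore uncertain.

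**Figure D3:**
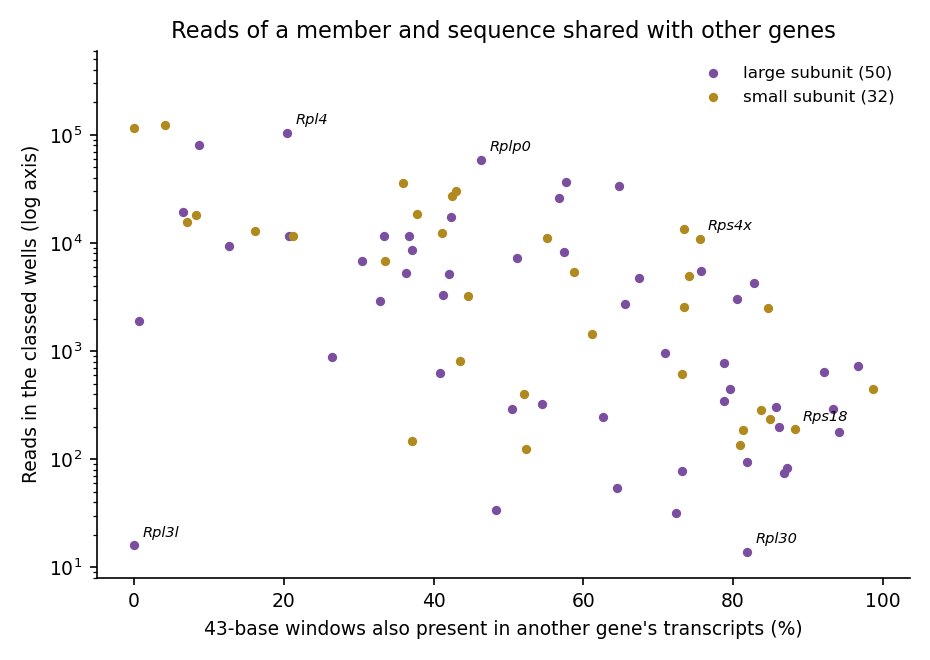
Reads of each ribosomal protein gene in all classed wells (vertical, log axis) against the percent of its 43-base stretches that also occur in transcripts of another gene (horizontal), for 82 members, colored by subunit. *Rpl10l*, without a read, and *Rps4l*, without a listed coding transcript, are not drawn. Genes with few shared stretches such as *Rpl4* lie at the top left, and genes at 75% or more mostly have few reads, with *Rps4x* above the others.

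The order of the classes was the same among the 14 members under 25%. Their share of reads was 0.373% and 0.385% in Rgs5-high, 0.268% and 0.305% in Dcn-high and 0.397% and 0.401% in Top2a-positive wells. Per ERCC read they gave 0.0208 and 0.0219, 0.0311 and 0.0351, and 0.0377 and 0.0399. These 14 members held 53.1% of the family's reads, the next 45 held 43.4% and the 24 most shared held 3.22%. *Rps20* counts among the 14 with 8.27% shared over a chosen transcript of 3706 bases, where the length behind its RPKM was near 510 bases. A separate limit concerned RPKM: the deposited values of *Rpl26* and *Rpl30* correspond to gene lengths of 4.44% and 4.93% of their transcripts, which put *Rpl26* at an RPKM of 20.03 from 78 reads and *Rpl30* at 2.11 from 14. A second row for *Rpl30* was outside the symbol rule and was not counted.

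The number of family members seen in a well also differed by class. A median of 49 and 50 members had a read in Rgs5-high wells of tumors 1 and 2, 51 and 50 in Dcn-high and 55 and 53 in Top2a-positive wells. After each well was thinned to 10000 reads it was 24 and 24, 21 and 22, and 25.5 and 26, so that at equal depth Dcn-high wells had the fewest. Thinned wells held a median of 2479 and 2503 genes of any kind in Rgs5-high, 2842 and 2849 in Dcn-high and 3074.5 and 2944 in Top2a-positive wells.

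The reads of the genes for the stalk proteins are given as CPM. *Rplp0*, its base (chr5:115559467-115563729), had a read in every classed well. Its level was 432.5 and 412.7 CPM in Rgs5-high, 318.4 and 325.9 in Dcn-high and 471.5 and 448.2 in Top2a-positive wells. *Rplp1* had 226.6 and 228.01, 179.1 and 220.7, and 279.2 and 278.5 CPM. *Rplp2* had 79.9 and 90.2, 53.1 and 72.2, and 75.6 and 80.2 CPM. All 3 were lower in both Dcn-high libraries than in both Rgs5-high libraries, and Top2a-positive libraries were above both for *Rplp0* and *Rplp1* but not for *Rplp2*. None of them passed the edgeR test on the TMM scale between Dcn-high and Rgs5-high wells, where the log2 fold changes were -0.14 for *Rplp0*, 0.07 for *Rplp1*, below 0 with library totals, and -0.19 for *Rplp2*.

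The most-read members of both subunits also had their lowest values in Dcn-high wells. *Rps3* was at 878.1 and 911.3 CPM in Rgs5-high, 606.8 and 701.2 in Dcn-high and 887.5 and 929.7 in Top2a-positive wells. *Rpl4* was at 794.4 and 741.2, 517.3 and 592.1, and 796.1 and 755.3 CPM, and *Rpl8* at 580 and 596.7, 440.5 and 433.9, and 603.3 and 556.6 CPM. All of these 3 genes were lower in both Dcn-high libraries than in either Rgs5-high library, while their Top2a-positive values overlapped those of Rgs5-high wells. *Rps6*, the target of the S6 kinases, was at 18.4 and 20.9, 11.6 and 13.3, and 16.1 and 12.4 CPM. *Rpsa*, also known as a laminin receptor, was at 24.5 and 21.2, 16.1 and 17.03, and 29.1 and 27.5 CPM. *Rps27a*, which is made as a fusion with ubiquitin, was at 4.94 and 4.09, 2.49 and 2.49, and 6.23 and 6.38 CPM. Dcn-high libraries were the lowest pair for *Rpsa* and *Rps27a*, and for *Rps6* they overlapped the Top2a-positive ones.

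**Figure D4:**
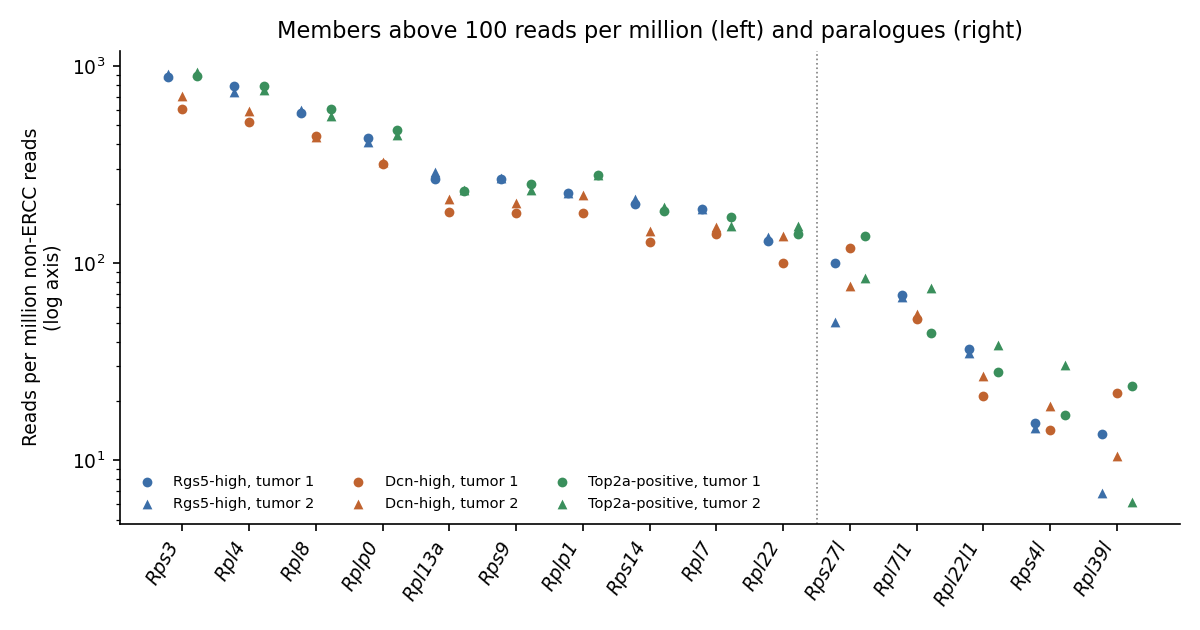
CPM (log axis) of 10 of the 12 ribosomal protein genes above 100 CPM in all 6 libraries and of 5 paralogues, with 1 point for each class and tumor. The 2 Dcn-high points lie at the low end for most of these 10 genes, while *Rps27l* and *Rpl39l* stand higher in tumor 1 than in tumor 2 in all 3 classes.

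The paralogues differed from each other. *Rps27l* (chr9:66944624-66949522), a gene induced by p53, had 100.6 and 50.4 CPM in Rgs5-high, 119.9 and 76.3 in Dcn-high and 136.7 and 84.4 in Top2a-positive wells, and was read in 89.9% of the classed wells. *Rpl39l* (chr16:10170197-10174911) had 13.7 and 6.82, 21.8 and 10.5, and 23.9 and 6.13 CPM and was read in 19.3%. In both genes tumor 1 was above tumor 2 in every class, by 1.5 times or more, which held for no other tested member and for 1.39% of all 11614 genes tested. The reverse held for *Rps28*, named after its values were seen, with 0.633 and 1.33, 0.131 and 1.02, and 0.26 and 1.63 CPM, and for 2.11% of all genes tested. *Rpl7l1* had 69.1 and 67.5, 51.97 and 54.9, and 44.4 and 75.2 CPM and was read in 56.1% of the wells. *Rpl22l1* had 36.7 and 34.9, 21.2 and 26.9, and 28.2 and 38.4 CPM, and *Rps4l* 15.4 and 14.5, 14.3 and 18.8, and 16.9 and 30.4 CPM. *Rpl7l1* and *Rpl22l1* were thus lower in Dcn-high than in Rgs5-high libraries like most of the family, and *Rps27l*, *Rpl39l* and *Rps4l* were not. *Rpl3l* had 15 and 0 reads in Rgs5-high, none in Dcn-high and 1 and 0 in Top2a-positive wells.

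Of the genes the paralogues are named after, *Rpl7* had 189.01 and 188.1, 140.5 and 153.4, and 170.6 and 153.9 CPM, and *Rpl22* 129.9 and 135.8, 100.7 and 137.2, and 140.4 and 154.5 CPM. *Rps4x*, the member closest in name to *Rps4l*, had 83.2 and 78.9, 54.6 and 55.1, and 92.6 and 71.4 CPM, and *Rpl39* 76.8 and 95.3, 48.4 and 68.2, and 81.7 and 90.7 CPM. These 4 were lowest in a Dcn-high library. The remaining 3 had few reads, with *Rpl3* between 0.813 and 1.76, *Rpl10* between 1.00 and 6.09 and *Rps27* between 0.649 and 4.09 CPM.

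To test single genes, summed reads of each class and tumor entered the quasi-likelihood test of edgeR, with a Benjamini-Hochberg adjusted p of 0.05 over 11614 genes whose mean RPKM reached 1, among them 76 members. The scales used were TMM, which compares a gene with the bulk of the other genes, and the ERCC reads as the library size, which compares it with the spike-in. The contrasts of Dcn-high and of Top2a-positive with Rgs5-high wells share the Rgs5-high libraries, and the difference between the contrasts was not tested. The p-values rest on the spread between the 2 tumors of a class, estimated over the classes together.

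On the TMM scale no ribosomal protein gene passed the test between Dcn-high and Rgs5-high wells. By edgeR, 0 of 76 were called higher, against 5.79% of all genes, and 0 lower, against 4.74%. None had an unadjusted p under 0.05 in either direction, against 12.1% and 10.7% of all genes, and the lowest adjusted p of a member was 0.235. DESeq2 called 0 as well, against 10.4% and 8.34% of all genes. With library totals in place of TMM edgeR also called 0, against 4.55% higher and 6.83% lower of all genes. At an unadjusted p under 0.05 that fit held 0 members higher and 14 lower, against 8.95% and 17.6% of all genes. The fold changes were nevertheless mostly on 1 side, with 13 of 76 above 0 and a median log2 fold change of -0.19, against -0.04 over all genes. With each well scaled to the same total before summing, 31 of 76 lay above 0 and the median was -0.08, against -0.04 over all genes. The most extreme fitted values were -1.79 ± 0.76 (SE) for *Rpl21*, -1.17 for *Rpl36a* and -0.82 for *Rpl30*, and 0.92 ± 0.79 for *Rpl39l*, 0.64 ± 0.44 for *Rps27l* and 0.55 ± 0.58 for *Rpl31*. *Rpl21*, for instance, had 10.7 and 4.64 CPM in Rgs5-high against 1.49 and 2.24 CPM in Dcn-high wells, so its 2 Rgs5-high libraries already differed by more than the lower of them stood above a Dcn-high library.

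Between Top2a-positive and Rgs5-high wells edgeR on the TMM scale called 0 members higher and 0 lower, against 1.37% and 0.146% of all genes. At an unadjusted p under 0.05 it was 0 higher and 1 lower, against 8.16% and 6.8% of all genes, and DESeq2 called 0, against 5.53% and 3.35%. The lowest adjusted p of a member was 0.308. Of the 76, 46 had a fold change above 0, with a median of 0.05 against -0.02 over all genes. The gene lower at an unadjusted p was *Rps27* at -2.21 ± 0.86 (edgeR adjusted p = 0.308), with 2.98 and 4.09 CPM in Rgs5-high and 0.649 and 0.876 CPM in Top2a-positive wells, and 98.7% of its stretches shared with other genes. The other extremes were *Rpl12* at -1.35 and *Rpl10* at -1.04, and *Rps29* at 1.501 ± 0.89, *Rps23* at 0.91 and *Rpl26* at 0.87.

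Per ERCC read, 13 of the 76 members passed the test as higher in Dcn-high wells and 0 as lower, where 24.5% and 3.38% of all genes were called. At an unadjusted p under 0.05, edgeR found 27 higher and 0 lower, against 39.2% and 4.66% of all genes. The median log2 fold change of the members was 0.59 against 0.75 over all genes, and 73 of 76 lay above 0. The family thus held no more calls than genes at large. Among the 8 called members with the largest change were *Rpl22*, *Rpl41*, *Rplp1*, *Rpl14*, *Rpl7*, *Rplp0* and *Rps15*. *Rplp1* had 1.26 and 1.30 reads per 1000 ERCC reads in Rgs5-high and 2.08 and 2.54 in Dcn-high wells, a log2 fold change of 0.85 ± 0.17 (edgeR adjusted p = 0.0168). *Rpl22* had 0.723 and 0.772 against 1.17 and 1.58, a change of 0.88 ± 0.21 (edgeR adjusted p = 0.030). *Rplp0* had 2.41 and 2.35 against 3.70 and 3.75, a change of 0.65 ± 0.14 (edgeR adjusted p = 0.0215). In these 3 genes the libraries of the classes did not overlap. The other 4 named changed by 0.63 to 0.85, with *Rpl41* at 0.85 ± 0.22, *Rpl14* at 0.83 ± 0.22, *Rpl7* at 0.68 ± 0.16 and *Rps15* at 0.63 ± 0.18. Of the 13 called members, 10 were among the 12 genes above 100 CPM in all libraries. Other settings moved the count. It was 5 without the wells rich in developmental markers, where 20.3% of all genes were called higher, 2 with Top2a-positive wells taken from an RPKM of 50 (15.1%), 7 with a class margin of 0 (21.2%), 8 with a class minimum of 100 (22%) and 8 with no filter on genes (17.4%). With each well scaled to the same total before summing it was 0, where 7.24% of all genes were called higher and 2.94% lower. It was 18 with the tumor as a block (25.2%), 25 by DESeq2 (37.4%) and 0 at an adjusted p of 0.001 (0.68%).

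Between Top2a-positive and Rgs5-high wells 22 of the 76 members rose per ERCC read and 0 fell, where 23.9% and 0.431% of all genes were called. At an unadjusted p under 0.05, edgeR found 39 higher and 0 lower, against 41.2% and 1.25% of all genes. The median was 0.85 against 0.78 over all genes, and 73 of 76 lay above 0. Among the 8 called members with the largest change were *Rpl41*, *Rplp1*, *Rps15*, *Rps20*, *Rpl22*, *Rps15a* and *Rplp0*. *Rpl41*, the shortest protein of the ribosome, had 0.292 and 0.336 reads per 1000 ERCC reads in Rgs5-high and 0.705 and 0.802 in Top2a-positive wells, a log2 fold change of 1.26 ± 0.23 (edgeR adjusted p = 0.0177). On the TMM scale its value was 0.46 ± 0.21 (edgeR adjusted p = 0.388). *Rplp1* had 2.65 and 2.78 reads per 1000 ERCC reads in Top2a-positive wells and a change of 1.09 ± 0.17 (edgeR adjusted p = 0.0144). Both were higher in both Top2a-positive libraries than in both Rgs5-high libraries. *Rps15* changed by 1.04 ± 0.19, *Rps20* by 0.95 ± 0.23, *Rpl22* by 0.94 ± 0.22, *Rps15a* by 0.94 ± 0.25 and *Rplp0* by 0.91 ± 0.14. *Rpsa* was at 1.10 ± 0.31 and did not pass (edgeR adjusted p = 0.0507). Of the 22, 11 were among the 12 genes above 100 CPM. The count was 13 without the wells rich in developmental markers, where 19.7% of all genes were called higher, 10 with Top2a-positive wells taken from an RPKM of 50 (14.9%), 23 with the tumor as a block (23.5%), 38 by DESeq2 (38.5%) and 0 at an adjusted p of 0.001 (0%).

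**Figure D5:**
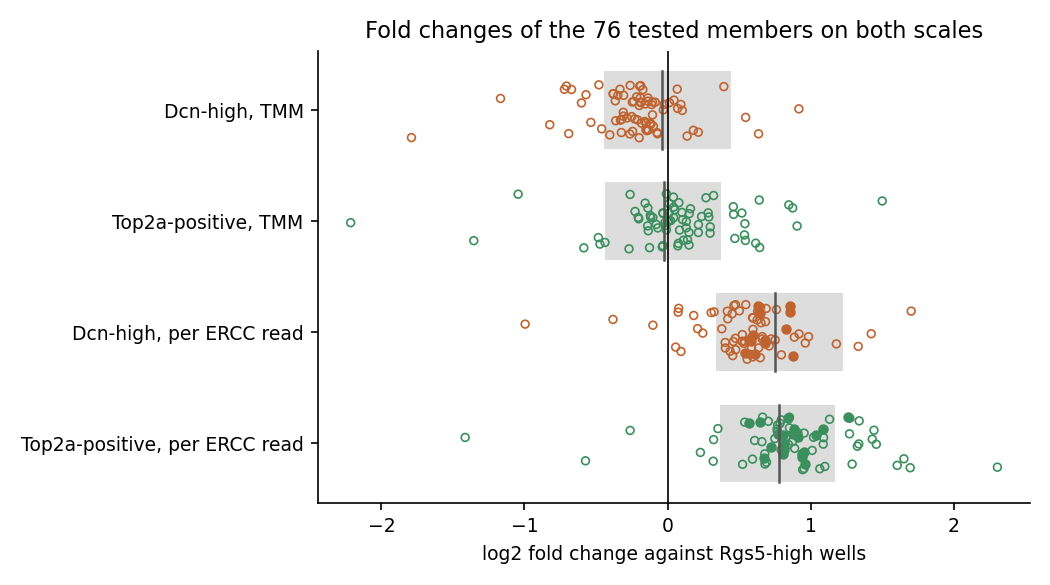
Log2 fold changes of the 76 tested ribosomal protein genes against Rgs5-high wells, for Dcn-high and Top2a-positive wells on the TMM and the ERCC scale. Filled points passed an adjusted p of 0.05 by edgeR, open points did not, the grey bar spans the quartiles of all genes tested and the line in it their median. The median of the members lies below the all-gene median in both Dcn-high contrasts (-0.19 against -0.04 and 0.59 against 0.75) and slightly above it in both Top2a-positive contrasts, with single members on both sides of it.

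The calls are given here by subunit and by shared sequence, beside 24.5% of all genes called higher in Dcn-high and 23.9% in Top2a-positive wells, and differences between these groups of members were not tested. Per ERCC read, 8 of 43 tested large subunit genes and 5 of 33 small subunit genes were called in Dcn-high wells, and 9 of 43 and 13 of 33 in Top2a-positive wells. Of the members under 25% shared stretches, 5 of 12 and 8 of 12 were called in the Dcn-high and Top2a-positive contrasts. From 25% to under 75% it was 8 of 42 and 13 of 42, and at 75% or more 0 of 21 and 1 of 21. The last group had the fewest reads, and the part of read number in these counts was not tested. Of the 13 members with the TOP letters at a listed start, 12 were tested, and 1 was called higher per ERCC read in Dcn-high and 2 in Top2a-positive wells. Of the 50 without these letters there, 46 were tested, and 7 and 12 were called. By edgeR none of the 5 tested paralogues passed in either contrast, though *Rps27l* and *Rps4l* had an unadjusted p under 0.05 in both and were called by DESeq2 in both. Of all genes, 39.2% and 41.2% were higher at that unadjusted p in Dcn-high and Top2a-positive wells, and 37.4% and 38.5% were called higher by DESeq2. *Rps27l* was at 1.42 ± 0.42 in Dcn-high (edgeR adjusted p = 0.0517) and 1.34 ± 0.42 in Top2a-positive wells (edgeR adjusted p = 0.0643). *Rps4l* was at 1.18 ± 0.44 (edgeR adjusted p = 0.0901) and 1.46 ± 0.44 (edgeR adjusted p = 0.0588), and *Rpl39l* was at 1.70 ± 0.78 in Dcn-high wells (edgeR adjusted p = 0.144). Members with a fold change below 0 per ERCC read were *Rpl21* (-0.995), *Rpl36a* (-0.38) and *Rpl30* (-0.10) in Dcn-high wells, and *Rps27* (-1.41), *Rpl12* (-0.57) and *Rpl10* (-0.26) in Top2a-positive wells.

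Other genes of the translation machinery were taken from fixed lists, whose counts per ERCC read stand against 24.5% of all genes called higher in Dcn-high and 23.9% in Top2a-positive wells. Of 4 further ribosome-linked genes, which encode fusion proteins, a scaffold and a second copy of a subunit, 1 was called higher per ERCC read in both contrasts. It was *Gnb2l1* (Rack1), a scaffold on the small subunit, with 847.5 and 967.3 CPM in Rgs5-high, 683.7 and 733.4 in Dcn-high and 892.2 and 1009 in Top2a-positive wells, a change of 0.68 ± 0.17 in Dcn-high (edgeR adjusted p = 0.030) and 0.86 ± 0.17 in Top2a-positive wells (edgeR adjusted p = 0.0211). Of 6 elongation factors, 2 rose per ERCC read in Dcn-high and 5 in Top2a-positive wells. *Eef1a1*, which brings the aminoacyl-tRNA, had 1286 and 1278, 797.7 and 879.96, and 1239 and 1135 CPM. Of 23 initiation factors and other TOP mRNAs, 10 and 14 rose per ERCC read. On the TMM scale the medians of these 3 lists were -0.21, -0.08 and -0.17 in Dcn-high and 0.12, 0.11 and 0.07 in Top2a-positive wells.

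Of 30 tested genes for ribosome biogenesis, 3 rose per ERCC read in Dcn-high wells, against 24.5% of all genes, and 10 in Top2a-positive wells, against 23.9%. On the TMM scale edgeR called 0 of them in either contrast. Of all genes it called 5.79% higher and 4.74% lower in Dcn-high wells and 1.37% and 0.146% in Top2a-positive wells. At an unadjusted p under 0.05 it was 2 lower in Dcn-high wells, against 10.7% of all genes, and 2 higher in Top2a-positive wells, against 8.16%. DESeq2 called 1 lower and 1 higher, against 8.34% and 5.53%. Their median on the TMM scale was -0.37 in Dcn-high wells, with 7 of 30 above 0, and 0.18 in Top2a-positive wells, with 23 of 30 above 0. *Nop56*, a core protein of the particles that methylate ribosomal RNA, had 43.6 and 42.5 CPM in Rgs5-high, 29.4 and 34.3 in Dcn-high and 92.98 and 80.2 in Top2a-positive wells. Its change in Top2a-positive wells was 1.797 ± 0.23 per ERCC read (edgeR adjusted p = 0.00991) and 1.00 ± 0.23 on the TMM scale (edgeR adjusted p = 0.123). *Ncl*, nucleolin, had 253.9 and 314.9, 143.5 and 188.7, and 454.5 and 329.5 CPM and rose per ERCC read in Top2a-positive wells by 1.25 ± 0.24 (edgeR adjusted p = 0.020). Both genes were highest in the Top2a-positive libraries.

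Of 13 tested genes that control ribosome production, 3 rose per ERCC read in Dcn-high and 2 in Top2a-positive wells, against 24.5% and 23.9% of all genes. On the TMM scale edgeR called 0 of them higher and 1 lower in Dcn-high wells, against 5.79% and 4.74% of all genes. Their median there was 0.11, against -0.04 over all genes, with 7 of 13 above 0. In Top2a-positive wells the median was -0.08, against -0.02 over all genes. *Myc*, a transcription factor known to drive ribosome production, had 99.4 and 74.7 CPM in Rgs5-high, 34.9 and 31.2 in Dcn-high and 55.8 and 52.9 in Top2a-positive wells. It was the gene of this list called lower in Dcn-high wells on the TMM scale, with a log2 fold change of -1.14 ± 0.25 (edgeR adjusted p = 0.0393). Per ERCC read it was at -0.36 ± 0.24 and did not pass (edgeR adjusted p = 0.292). Of 76 tested genes of the mitochondrial ribosome, 11 and 32 rose per ERCC read, against 24.5% and 23.9% of all genes, with TMM medians of -0.09 and 0.18. *Mrpl17*, the only one of them called by edgeR on the TMM scale in either contrast, had 61.6 and 71.1, 106.99 and 121.8, and 81.4 and 91.6 CPM. It rose by 1.04 ± 0.20 in Dcn-high wells (edgeR adjusted p = 0.0233), where 5.79% of all genes were called higher on that scale.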

How the data were processed

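The authors sequenced 768 wells by Smart-seq2 (single-end reads, no molecular identifiers) and aligned them to mm10 with STAR. The deposited counts are whole reads per RefSeq gene, not normalized, and the RPKM table, also deposited, scales reads to gene length and depth. How reads with several matches were counted is not given in the sources used here. Both tables hold 24490 genes and 92 ERCC rows, 0 columns were left unused and 0 wells had identical counts.

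RPKM of 3 genes set the classes, and no doublet caller was run. Counts summed per class and tumor (6 libraries) were tested with edgeR 4.0.16 in R 4.3.3 (glmQLFit, glmQLFTest, no covariate, SE as the fold change over the root of F), which was tested on simulated data. The simulated libraries were independent of each other and changed only in well-read genes. They therefore do not speak for paired libraries or for members with few reads. DESeq2 1.42.0, the tumor as a block, other filters, scalings, class limits and wells were alternatives. Leaving out wells with at least 4 developmental markers, or wells under 1% ERCC, were alternatives chosen after seeing the data. The 3 libraries of each tumor share an animal and are thus paired, and their deviations from the class means correlated by 0.120 to 0.155 over 11614 genes. TMM factors were 0.872 to 1.075.

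Named are the 5 highest and 5 lowest detected members by RPKM, up to 8 called members per direction with the largest change, else the 3 most extreme, the paralogues with the genes they are named after, and *Rpsa*, *Rplp0*, *Rplp1*, *Rplp2*, *Rps6* and *Rps27a*. Members, lists and pathway genes named were chosen with earlier results of these data known. Figures were drawn with matplotlib 3.10.9, and start sites came from RefSeq's table, which held 63 of the 84 members. Values of some members that fall under this rule are not reported here.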

Additional observations from a re-analysis of the deposited data

Results flagged for a closer look

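Wells that fell in no class enter no comparison but also carried ribosomal protein reads, and they are listed here because their median share lay above that of the Rgs5-high wells of the same tumor. In tumor 1, 15 such wells had a median share of 0.716% against 0.675%, and 6 of them lay above the third quartile of the Rgs5-high wells, 0.818%. In tumor 2, 18 such wells had a median of 1.04% against 0.702%, and 10 lay above 0.867%. Reads of at least 4 of the 8 developmental markers were present in 7 and 12 of these wells. *Rgs5* and *Dcn* were both at an RPKM of at least 10 in 8 and 3 wells, and neither was in 6 and 14. The highest share was 1.61% in tumor 1, in a well with 162324 reads and 8 developmental markers, and 3.16% in tumor 2, in a well with 21383 reads and 2 of these markers. The difference from the classed wells was not tested.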

How the results depend on the processing

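No fold change of a named gene that passed the test changed sign under an alternative, and neither did the members' medians or the mean log2 ratios of the classes. In tumor 2 alone, the Top2a-positive share fell below the Rgs5-high share at a *Top2a* RPKM of 50, without developmental wells and without the 50 most-read genes. Among named genes that did not pass the test, 91 values of 42 results changed sign, 7 of them with library totals, 15 with wells scaled alike and 29 with 1 tumor left out. Over all named genes, 75 values of 17 results lost and 29 of 9 gained the threshold. The values that moved are grouped here, and their cause was not tested. For the members' median log2 fold change on the TMM scale, library totals gave -0.44 in Dcn-high wells, where the median of all genes moved to -0.29 and 4 members in place of 13 lay above 0, and wells scaled alike gave -0.08 with 31 above 0. In Top2a-positive wells it was 0.0158 with a mean of at least 1 read, 0.00899 without a filter, 0.11 with wells scaled alike, 0.00350 at a *Top2a* RPKM of 50, 0.0732 with wells both Top2a-positive and Rgs5-high and 0.0271 without developmental wells. With 1 tumor left out, values that carry no test, it was -0.28 to -0.12 in Dcn-high and 0.0464 to 0.0726 in Top2a-positive wells. Per ERCC read, the members called in Dcn-high wells were 8 without a filter, 25 by DESeq2, 0 with wells scaled alike, 7 with a margin of 0, 8 with a class minimum of 100, 2 at a *Top2a* RPKM of 50, 5 without developmental wells and 0 at an adjusted p of 0.001, and the median was 0.38 with wells scaled alike. In Top2a-positive wells 38 were called by DESeq2, 10 at a *Top2a* RPKM of 50, 13 without developmental wells and 0 at an adjusted p of 0.001. The median there was 0.81 with a mean of at least 1 read, 1.16 with wells scaled alike, 0.75 at a *Top2a* RPKM of 50, 0.80 with at least 50000 reads, 0.91 with no minimum and 0.81 without developmental wells.

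The log2 ratio of the share to Rgs5-high wells was -0.28 from RPKM in Dcn-high wells (-0.49 to -0.34 with 1 tumor left out). In Top2a-positive wells it was 0.0146 at a *Top2a* RPKM of 50, 0.0124 without the 50 most-read genes, 0.11 from RPKM and 0.14 as the median over wells (0.03 to 0.07 with 1 tumor left out). The ratio per ERCC read was 0.83 as the median over wells in Dcn-high wells. In Top2a-positive wells the tumors hardly differed in the main setting, but stood at 2.23 and 1.72 times the Rgs5-high value as medians over wells. The log2 ratio there was 0.85 and 0.84 with margins of 4 and 0, 0.80 with a class minimum of 100, and 0.80 and 0.81 at a *Top2a* RPKM of 1 and 50. It was 0.82 with wells both Top2a-positive and Rgs5-high, 0.78 with at least 50000 reads, 0.90 with no minimum and 0.80 without developmental wells. It was also 0.82 without wells under 1% ERCC, 0.83 without paralogues and 0.97 as the median over wells. With the tumor as a block, pairing the libraries of an animal, 18 and 23 members were called per ERCC read, no count of members called changed by over 1.5 times, and the medians were -0.20, 0.05, 0.58 and 0.85. No symbol began with mt-, so that alternative gave no value. Depth limits single members, since 27 were below 5 CPM in every library.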
